A study of Rattus norvegicus with 8 samples.

Results

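The 9 genes described here mark astrocytes or their reactive state and were followed through RNA libraries of the rat lower spinal cord: Gfap (ENSRNOG00000002919), Vim (ENSRNOG00000018087), Aqp4 (ENSRNOG00000016043), S100b (ENSRNOG00000001295), Slc1a2 (ENSRNOG00000005479), Slc1a3 (ENSRNOG00000016163), Gja1 (ENSRNOG00000000805), Glul (ENSRNOG00000049560) and Apoe (ENSRNOG00000018454). They were taken by Ensembl identifier, 9 of the 32883 genes in the count table. No measured value entered the rule, but the genes were chosen with earlier results of these data known. The table holds identifiers alone, and the symbols are those listed with the identifiers when the genes were chosen. All animals were Sprague Dawley rats with a hemisection of the cord at T9, a thoracic level, and the cord below it was taken 23 days after the injury. Trained rats received training after the injury (4 libraries) and untrained rats did not (4 libraries), and no uninjured group is analysed here. The labels give neither the kind of training, nor the age or sex of the rats, nor how many rats stand behind a library. A p-value here thus refers to the spread among libraries, which could be technical.

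Astrocytes are the glial cells that clear glutamate from synapses, buffer potassium and water, and support neurons. Slc1a2 and Slc1a3 encode the astrocytic glutamate transporters GLT-1 and GLAST, Glul encodes glutamine synthetase, which turns the glutamate taken up into glutamine, Aqp4 encodes the water channel of astrocyte endfeet, and Gja1 encodes the main astrocytic connexin, which couples astrocytes through gap junctions. After injury astrocytes become reactive and build up the intermediate filaments GFAP and vimentin, so that these filament genes are the usual readout of reactivity. S100b encodes a calcium-binding protein of astrocytes that some oligodendrocyte-lineage cells and Schwann cells also make, and Apoe encodes a lipid carrier that astrocytes and microglia secrete. Vim is also expressed in vessel walls, meninges, microglia and ependyma.

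The libraries were made by CEL-Seq2, which counts transcripts near their 3′ end by unique molecular identifiers (UMIs), short random tags that allow PCR copies of a molecule to be counted once. Totals ran from 192472 to 453390 UMIs per library, and the 9 genes held between 1.42% and 1.83% of them. Levels are given as CPM, the share of a library's UMIs in its usual unit, after scaling of library sizes, which compares a gene between libraries but is not used here to rank genes. Enough counts for a test were present for 4086 genes, among them 8 of the 9, all but Slc1a2, and each of the 8 was counted in every library. The identifiers could not be paired with symbols beyond the 9, so markers of other cell types in the cord were not read and their part in any result was not tested. In whole-tissue RNA, fewer astrocytes and less RNA per astrocyte cannot be told apart.

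Training was not accompanied by a detectable change in any of the 8 astrocyte genes tested. None passed the threshold (edgeR's quasi-likelihood test, adjusted p = 0.999979 for each of the 8, adjusted over 4086 genes), and 0 of the 8 had an unadjusted p under 0.05, the smallest being 0.266 for Vim. Across all genes tested 0 passed, a share of 0%, and 52 had an unadjusted p under 0.05. DESeq2 and limma-voom also called 0 of these genes and gave 0 of them an unadjusted p under 0.05. With libraries of the same number treated as pairs (the replicate number as a block in edgeR) 2 of the 4086 genes passed, or 0.0489%, and again 0 of the 8, with an adjusted p between 0.994 and 0.997.

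The estimates for the astrocyte genes were small. The log2 fold change, trained over untrained, was above 0 for 5 of the 8 and below 0 for 3, with a median log2 fold change of 0.05 against 0.01 over all genes tested, and a median absolute log2 fold change of 0.07 against 0.15. The 95% interval of the fold change lay within 2-fold in either direction for 8 of the 8 genes, against 80.0% of all genes tested. It lay within 1.5-fold for 6 of the 8, all but Vim and S100b, against 16.8% of all genes. In the fit with the block it lay within 1.5-fold for 7 of the 8, all but Vim, against 40.2% of all genes. These shares are not like for like, since intervals narrow with the count. Trained and untrained libraries overlapped for 8 of the 8 genes, where 1.10% of all genes had groups that did not overlap.

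**Figure D1:**
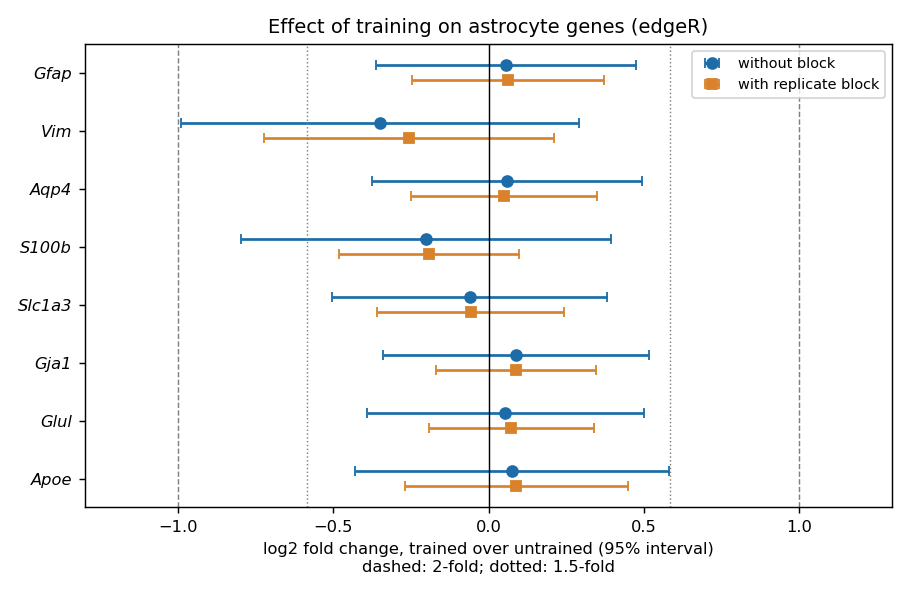
Log2 fold change of each astrocyte gene, trained over untrained, with its 95% interval from edgeR, without the block (circles) and with the replicate number as a block (squares). Every interval includes 0, and the intervals of Vim and S100b without the block reach past the dotted 1.5-fold line but not past the dashed 2-fold line.

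Gfap, the classical filament of reactive astrocytes, differed little in mean between the groups. It stood at 2273, 2449.6, 3004 and 2276 CPM in untrained replicates 1 to 4 and at 2552, 2850.5, 2194 and 2792 CPM in trained ones. Trained libraries lay higher in 3 of 4 pairs, while untrained replicate 3 was the highest and trained replicate 3 the lowest of all 8. The means were 2501 ± 346 CPM untrained and 2597 ± 298 CPM trained (SD, n = 4 each), a 1.04-fold difference with a 95% interval of 0.778 to 1.39. Of the 8 genes Gfap had the narrowest span, with its highest library 1.37 times its lowest.

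Vim, the filament gene that astrocytes take up again when reactive, had the widest span between libraries of the 8 genes. It stood at 202, 191, 467 and 384 CPM in untrained replicates 1 to 4, on 77, 67, 98 and 173 UMIs, and at 304, 180.1, 153 and 312 CPM in trained ones, on 121, 35, 25 and 58 UMIs. The replicate 3 libraries held both extremes, the highest untrained and the lowest trained, so that the span of 3.05-fold was set within 1 pair. The means were 311 ± 137 CPM untrained and 237 ± 82.4 CPM trained (SD over 4 libraries each), with a log2 fold change of -0.35 ± 0.30 (SE; 95% interval -0.99 to 0.29; edgeR adjusted p = 0.999979). The coefficient of variation was 44.0% in untrained and 34.7% in trained libraries, where counting alone gives 10.5% and 13.1%. In the fit with the block the estimate was -0.26 ± 0.22, and without the replicate 3 pair it was 0.083, so the lower mean of Vim in trained cords rested on that pair. With 1 library left out and no block it ran from -0.53 without untrained replicate 2 to -0.12 without untrained replicate 3. Without the replicate 1 pair the blocked estimate was -0.62, with an unadjusted p of 0.0178 (edgeR adjusted p = 0.952).

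The sequences upstream of these filament genes are shown because the genes are read against each other below. Both are the 250 bases before the transcript start in RefSeq (build GRCr8, while the submitters' processing notes name Rnor_6.0 for the counts), 5′ to 3′ on the strand of the gene, with motif matches in capitals. Gfap lies on the minus strand (chr10:88361662-88361911) and Vim on the plus strand (chr17:81577011-81577260).
Gfap: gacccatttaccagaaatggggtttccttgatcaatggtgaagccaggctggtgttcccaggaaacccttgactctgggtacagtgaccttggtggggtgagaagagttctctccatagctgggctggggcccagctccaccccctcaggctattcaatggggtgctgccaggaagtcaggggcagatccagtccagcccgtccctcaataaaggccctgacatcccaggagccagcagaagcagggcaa
Vim: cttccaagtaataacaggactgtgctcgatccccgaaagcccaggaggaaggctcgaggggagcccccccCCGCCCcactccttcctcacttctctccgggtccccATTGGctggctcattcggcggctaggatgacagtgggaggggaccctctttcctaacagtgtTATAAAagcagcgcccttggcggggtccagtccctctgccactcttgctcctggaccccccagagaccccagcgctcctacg
The 5 motifs, spelled here, were searched on both strands, and no match overlapped another. The core promoter motif searched was TATAAA, found before many regulated genes. The box bound by NF-Y was searched as CCAAT, and the box bound by Sp1 as GGGCGG. For STAT factors, which act in astrocyte reactivity, the motif was TTCNNNGAA, and for AP-1 factors it was TGANTCA. The Vim window held TATAAA at 82 to 77 bases before the start, CCAAT on the other strand at 144 to 140 and GGGCGG on the other strand at 180 to 175. The Gfap window held none of the 5, which says only that these letters are not in it. Of 33469 windows of the same length in the table, 12.9% held the core promoter motif, 34% the NF-Y box, 30.5% the Sp1 box, 7.67% the STAT motif and 6.34% the AP-1 motif. Matches are a description of the letters, and the counts do not test them.

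The genes of glutamate handling, water transport and coupling also differed little in mean between the groups. For the 4 that could be tested, Aqp4, Slc1a3, Gja1 and Glul, the fold change lay between 0.959 and 1.06, and each 95% interval lay within 1.5-fold. Aqp4 stood at 2865, 2432, 2490.1 and 2207 CPM in untrained replicates 1 to 4 and at 2790.3, 3179.8, 2028 and 2409.8 CPM in trained ones. Both the highest and the lowest library were trained, and 2 of 4 pairs were higher in each direction. The means were 2498 ± 273 and 2602 ± 495 CPM (SD, n = 4 each; log2 fold change 0.06 ± 0.21 SE).

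Slc1a3, the transporter GLAST, stood at 291, 361, 390.4 and 284 CPM in untrained replicates 1 to 4 and at 364, 319, 349 and 226 CPM in trained ones. Trained libraries were lower in 3 of 4 pairs, and the groups overlapped over most of their range. The means were 332 ± 52.5 CPM untrained and 315 ± 62.0 CPM trained (SD, n = 4 each; log2 fold change -0.06 ± 0.21 SE). On 42 to 145 UMIs a library, counting alone gives a coefficient of variation of 9.82% and 12.2% in the groups, against 15.8% and 19.7% observed, the smallest ratio of observed to counting error of the 8 genes in both groups.

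Slc1a2, the transporter GLT-1, could not be compared. Its identifier held 1 UMI in untrained replicate 1, 1 UMI in trained replicate 4 and 0 in the other 6 libraries, 2 of 2466500 UMIs in all. A count of 0 allows up to 3 counts, which is 6.66 CPM at the depth of untrained replicate 4 and 18.4 CPM at that of trained replicate 3, for counting error only. The row therefore gives no measure of GLT-1 in either group, and why it is nearly empty was not tested.

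Gja1, the gap junction gene, stood at 885, 1158, 1314 and 1163 CPM in untrained replicates 1 to 4 and at 982, 1059.9, 1366 and 1399 CPM in trained ones. Replicate 1 was the lowest library in both groups. The means were 1130.1 ± 179 and 1202 ± 212 CPM (SD, n = 4 each; log2 fold change 0.09 ± 0.20 SE). Glul, glutamine synthetase, stood at 1314, 1943, 2190.1 and 1523 CPM in untrained replicates 1 to 4 and at 1527, 1857, 2102 and 1748 CPM in trained ones. Its replicates kept the same order in both groups, with replicate 1 lowest and replicate 3 highest. The means were 1743 ± 397 and 1809 ± 239 CPM (SD, n = 4 each; log2 fold change 0.05 ± 0.21 SE).

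S100b, the calcium-binding protein, differed between replicate numbers, as tested below, and not detectably between groups. It stood at 1105, 1004, 2285 and 1354 CPM in untrained replicates 1 to 4 and at 869, 1250.3, 1893 and 989.8 CPM in trained ones. Replicate 3 was the highest library of both groups, and the other 6 libraries lay below both. The means were 1437 ± 584 CPM untrained and 1251 ± 457 CPM trained (SD over 4 libraries each), with a log2 fold change of -0.20 ± 0.28 (SE; 95% interval -0.80 to 0.39; edgeR adjusted p = 0.999979). Without untrained replicate 3 the estimate turned to 0.10, with no call. Without the replicate 2 pair, the only pair in which the trained library was higher, the blocked unadjusted p was 0.0324 (edgeR adjusted p = 0.899).

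For Apoe, the lipid carrier, the sign of the difference depended on how high counts were treated. It stood at 5651, 6618, 8794 and 5073 CPM in untrained replicates 1 to 4 and at 5656, 8644, 6930.4 and 6294 CPM in trained ones, with means of 6534 ± 1636 and 6881 ± 1285 CPM (SD, n = 4 each; log2 fold change 0.08 ± 0.24 SE). Its counts ran from 1131 to 2326 UMIs, which would be 27.6% to 56.8% of all the different tags of 6 bases. The labels do not give the length of the tag. The highest count of any gene lay between 3764 and 4049 in every library, although totals ran from 192472 to 453390 UMIs. It was 4049 in trained replicate 3, the shallowest library, and 4040 in untrained replicate 4, the deepest. The cause of this near-constant highest count was not tested. Against the log2 total of the library, the log2 count of Apoe had a slope of 0.77, where a fixed share gives 1. S100b, at most 14.9% of that number of tags, had a slope of 0.73. The remaining tested genes ran from 0.83 for Glul to 1.49 for Vim, and the source of these slopes was not tested. Counts corrected for a ceiling at that number of tags gave Apoe a slope of 1.04. They gave means of 7691 ± 1629 CPM untrained and 7291 ± 1383 CPM trained, and a log2 fold change of -0.077 (edgeR adjusted p = 0.999844). Untrained libraries were the deeper ones on average, and which sign of this small difference holds cannot be told apart from the ceiling. For the other members the highest count was at most 27.1% of that number, and their signs held on the corrected counts. The log2 fold change fell from 0.056 to 0.019 for Gfap, from 0.060 to 0.021 for Aqp4 and from 0.054 to 0.025 for Glul. That of Gja1 went from 0.087 to 0.069, and those of Vim, S100b and Slc1a3 became slightly more negative.

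**Figure D2:**
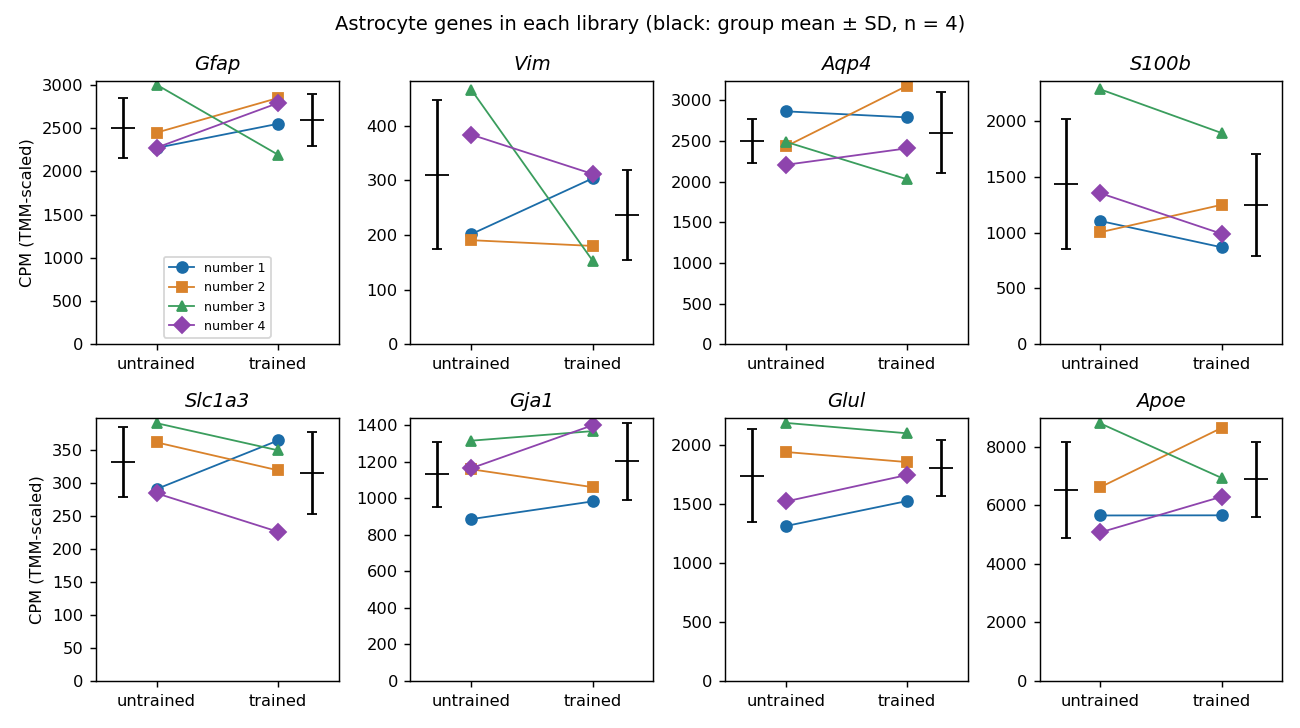
Level of each tested astrocyte gene in CPM in every library, with the libraries of the same number joined by a line and the mean ± SD of each group in black (n = 4). The groups overlap in all 8 panels, and the replicate 3 libraries of Vim lie at 467 and 153 CPM while those of S100b lie at 2285 and 1893 CPM.

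Reactive genes were also set against transport and coupling genes of the same library. The measure was the mean log2 CPM of Gfap and Vim minus that of Aqp4, Slc1a2, Slc1a3, Gja1 and Glul, given as values without a test because the genes were chosen. It was 0.81, 0.71, 1.39 and 1.31 in untrained replicates 1 to 4 and 1.14, 0.78, 0.47 and 1.09 in trained ones. The groups overlapped, with means of 1.05 ± 0.35 untrained and 0.87 ± 0.31 trained (SD, n = 4 each), and trained libraries were lower in 2 of 4 pairs. The difference of -0.18 was smaller than either SD. It rested on Vim, with -0.38 for Vim alone and 0.01 for Gfap alone. The replicate 3 pair contributed most, with -0.92 against 0.34, 0.07 and -0.22 in pairs 1, 2 and 4. With 1 library left out it lay between -0.30 and -0.05, at -0.05 without trained and -0.07 without untrained replicate 3. Slc1a2 is nearly empty, and its single UMIs in untrained replicate 1 and trained replicate 4 enter pairs 1 and 4. Without it the difference was -0.17, and pairs 1 to 4 stood at 0.21, 0.07, -0.89 and -0.07. The measure was then negative in every library, with means of -0.39 ± 0.32 untrained and -0.57 ± 0.37 trained (SD, n = 4 each). Its positive level thus rested on the nearly empty row and does not rank reactive above transport genes.

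Ratios of single genes were also read. The log2 ratio of Gfap to Aqp4 counts averaged -0.0022 (SD 0.25) in untrained and 0.0097 (SD 0.18) in trained libraries. Gfap to Glul gave 0.54 ± 0.19 and 0.52 ± 0.31, and Gfap to Gja1 gave 1.15 ± 0.17 and 1.12 ± 0.35. Glul to Slc1a3, the glutamate-handling genes, gave 2.38 ± 0.14 and 2.54 ± 0.36. Ratios that hold Vim differed more in mean and were also within their spread, with trained minus untrained at -0.39 for Vim to Aqp4, -0.42 for Vim to Glul, -0.44 for Vim to Gja1 and -0.26 for Vim to Slc1a3. The log2 ratio of Gfap to Vim was 3.11 ± 0.56 untrained and 3.51 ± 0.47 trained, and differed by -0.42, 0.30, 1.15 and 0.59 in pairs 1 to 4.

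**Figure D3:**
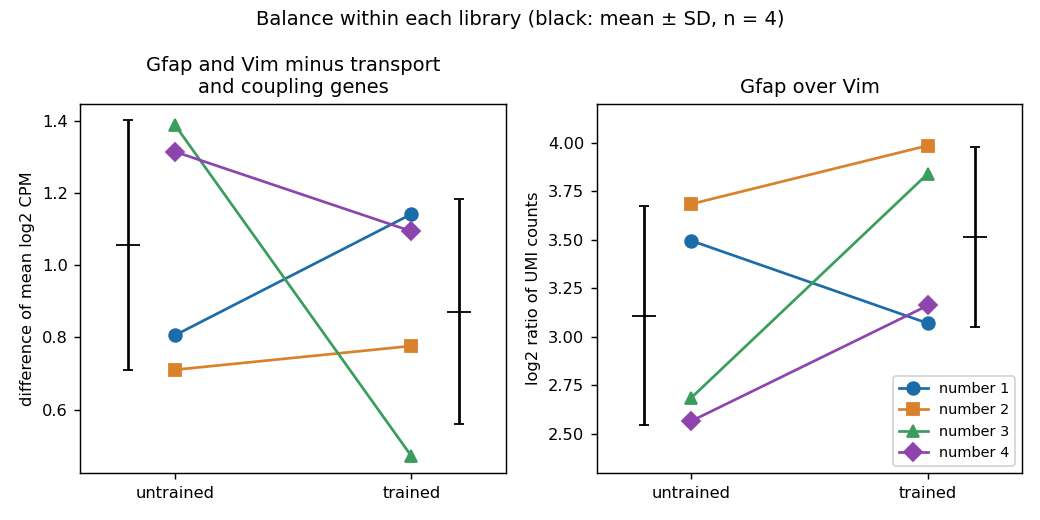
Left, mean log2 CPM of Gfap and Vim minus that of the transport and coupling genes in each library. The nearly empty Slc1a2 is included, and without it every value on the left is negative. Right, log2 ratio of Gfap to Vim UMI counts. Lines join libraries of the same number and black marks give the mean ± SD (n = 4); the replicate 3 pair has the steepest line in both panels, from 1.39 to 0.47 on the left and from 2.69 to 3.84 on the right.

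Each group has replicates 1 to 4 by title, and what a number stands for is not said; the astrocyte genes were tested for a difference between numbers with training in the model. S100b passed (edgeR adjusted p = 0.00261), so 1 of 8 passed, where 16.0% of all 4086 genes did. Its level in replicate 3 was 1.98 times the mean of the other 3 replicates in untrained cords and 1.83 times in trained cords, both shifted the same way. With another scaling, no filter, ceiling-corrected counts, limma-voom or any 1 library left out, S100b still passed, at an adjusted p of at most 0.0276. Replicate 3 was the shallowest library of each group, and the part of depth in the result was not tested. Trained replicate 3, the shallowest library of all with 192472 UMIs, held 1893 CPM of S100b. The log2 count of S100b against the log2 total had a slope of 0.73, the lowest of the 8 tested genes. Trained replicates 2 and 4, with 216786 and 212328 UMIs, were shallower than untrained replicate 3, with 240895, and held 1250.3 and 989.8 CPM of S100b against 2285.

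The other 7 did not pass this test. Glul (edgeR adjusted p = 0.0865), Gja1 (0.125) and Vim (0.156) had unadjusted p-values of 0.0192, 0.0332 and 0.0483. Glul passed in limma-voom (adjusted p = 0.0438), and Vim and Apoe passed in edgeR with no filter on low counts (0.0292 and 0.0244). Vim also passed when either replicate 3 library was left out (edgeR adjusted p = 0.0153 without the untrained and 0.00713 without the trained one), but its remaining replicate 3 library was then low in the first case and high in the second. Gfap gave no sign of a difference between numbers (edgeR adjusted p = 0.944), with means of 2412, 2650.03, 2599 and 2534 CPM over both groups for numbers 1 to 4.

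**Figure D4:**
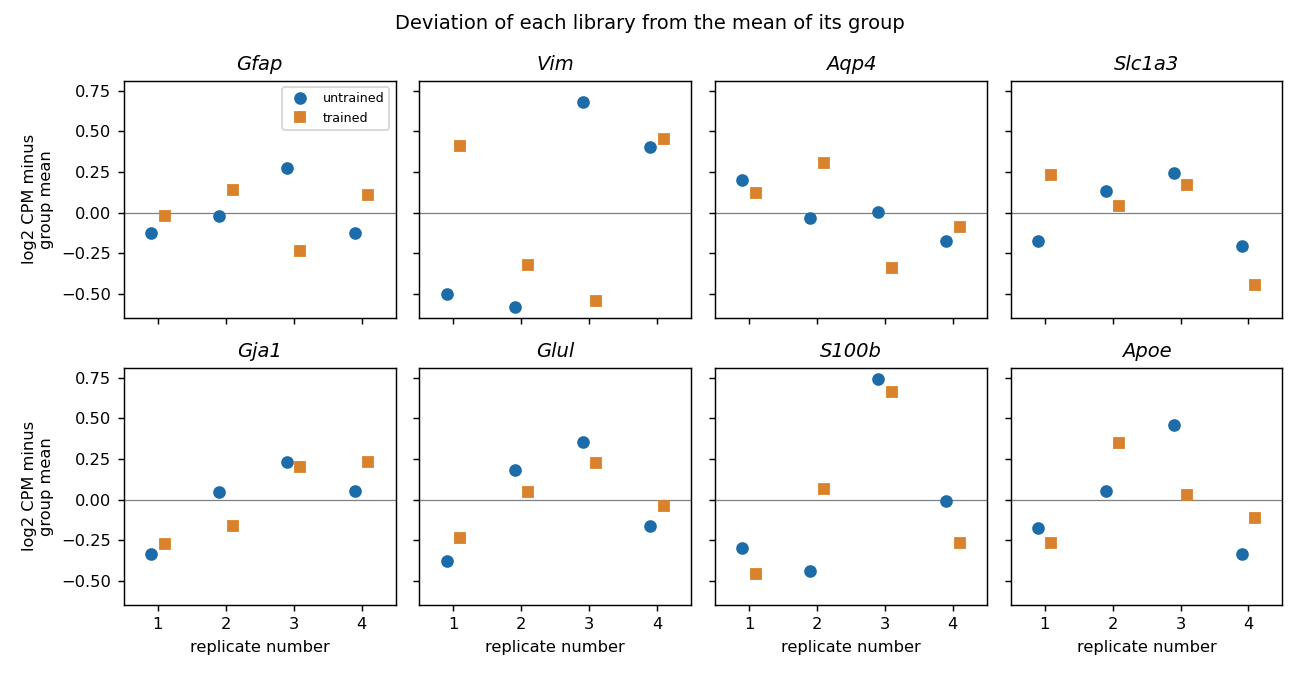
Log2 CPM of each library minus the mean of its group, by replicate number, for untrained (circles) and trained (squares) libraries. For S100b the replicate 3 libraries stand at 0.74 and 0.66 above their group means, while for Vim they stand on opposite sides, at 0.68 and -0.54.

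Astrocyte genes did not vary as a single block across the 8 libraries. The Pearson correlation of log2 CPM between members ranged from -0.71 to 0.78 over 28 pairs, with a median of 0.25, while the median between a member and all other genes was -0.02. These values share libraries, depth and scaling, rest on 8 points of which same-numbered ones deviate together, and are descriptions only. Apoe and Glul were most alike (r = 0.78, Spearman rho 0.90), and Glul ranked 39 of 4085 genes by likeness to Apoe. Gja1 and Glul followed (r = 0.75), then Apoe and Gfap (r = 0.69) and Glul and S100b (r = 0.63). Aqp4 and Gja1, both of astrocyte endfeet, ran opposite (r = -0.71, rho -0.76), and in replicate 1 of both groups Aqp4 was above and Gja1 below its group mean. Gfap and Vim, the reactive pair, had r = 0.45. Glul, Gja1, S100b and Apoe had slopes of log2 count against log2 total below 1, at 0.83, 0.89, 0.73 and 0.77. The other tested genes had slopes from 1.04 for Gfap to 1.49 for Vim, and the part of depth in these correlations was not tested. The non-members with the highest mean correlation to the 8 genes were ENSRNOG00000010825 and ENSRNOG00000024159, each at 0.51.

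**Figure D5:**
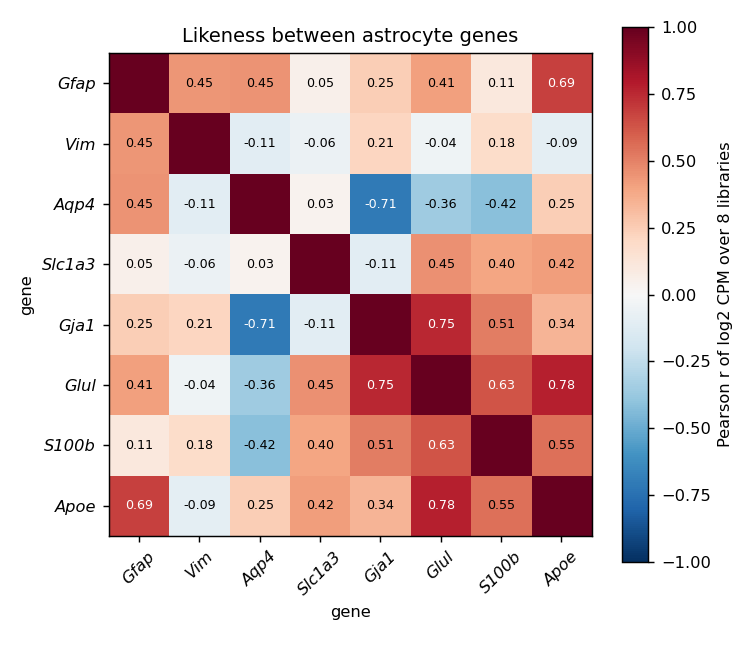
Pearson correlation of log2 CPM over the 8 libraries for each pair of the 8 tested astrocyte genes, in the colour scale from -1 to 1. Glul, Gja1, S100b and Apoe form the red corner with values from 0.34 to 0.78, and Aqp4 against Gja1 is the lowest cell at -0.71.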

How the data were processed

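The authors deposited raw UMI counts per Ensembl gene for 8 CEL-Seq2 libraries (Illumina HiSeq1500, per the labels' protocols); the submitters' processing notes name HISAT2 2.0.4, HTSeq 0.6.0 and Rnor_6.0. UMI length, UMI collapsing and strand setting are not stated there. Counts were analysed in R 4.3.3: filterByExpr (minimum count of 10), TMM scaling and edgeR 4.0.16's quasi-likelihood test over all 8 libraries, with Benjamini-Hochberg adjustment over 4086 genes and a threshold of 0.05; DESeq2 1.42.0 and limma 3.58.1 were alternatives. Log2 CPM used a prior count of 2. SE is the fold change over the square root of F. The scripts were tested on simulated counts with known changes, which checks the code and not these data. Those counts had no tag ceiling and, for training, no deviation shared by replicate number. Same-numbered libraries deviated together (r between 0.30 and 0.53 across genes in the 4 pairs). The numbers were therefore taken as pairs in the fits with the block and in the differences by pair. The main fit had no block. Members, lists and tests were chosen with earlier results of these data known. All 9 members are named, and correlations by a fixed rule. None of the identifiers (0 of 32883) matched the RefSeq table at hand, so lists of other astrocyte genes and of cell type markers were not used.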

Additional observations from a re-analysis of the deposited data

How the results depend on the processing

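None of the 8 tested genes passed the threshold for training in any of 184 combinations of gene and alternative, the replicate block included, and the sign of the log2 fold change turned in 18. On ceiling-corrected counts Apoe was at -0.077 without and -0.069 with the replicate block. With the replicate block and 1 pair left out, Aqp4 was at -0.075 and Apoe at -0.019 without replicate 2, Vim at 0.083 without replicate 3, and Gfap at -0.016 and Slc1a3 at 0.017 without replicate 4. With single libraries left out, the range was -0.060 to 0.25 for Apoe, -0.058 to 0.15 for Aqp4, -0.014 to 0.18 for Gja1, -0.060 to 0.18 for Glul, -0.48 to 0.10 for S100b and -0.15 to 0.056 for Slc1a3, and with no change of sign -0.53 to -0.12 for Vim and 0.00084 to 0.15 for Gfap. Over all genes, the count past the threshold for training was 6 with no filter, 2 with the replicate block, 1 with the block on ceiling-corrected counts, 18 with the block and no filter, 2 with the block in limma-voom, and 2, 5 and 5 with the block and without the pair of replicate 2, 3 or 4. The count for replicate number, 654, was 425 to 625 with a library left out, with 431 without untrained replicate 2 and 425 without untrained replicate 4. Fits with the block in other tools or with no filter, those of replicate number with a library left out, and the balance without Slc1a2 were chosen after seeing the data; causes were not tested. The difference in balance stayed within 1 SD (0.33) of its value in every alternative run, with its sign turned for Gfap alone (0.01). Counting error was largest for Slc1a2, Vim and Slc1a3, and the spread of Vim between libraries lay well above it.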
